A study of Mus musculus with 6 samples.

Results

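The genes described here are 8 collagen and matrix genes typical of fibroblasts: Col1a1 (ENSMUSG00000001506), Col1a2 (ENSMUSG00000029661), Col3a1 (ENSMUSG00000026043), Col6a1 (ENSMUSG00000001119), Fn1 (ENSMUSG00000026193), Dcn (ENSMUSG00000019929), Lum (ENSMUSG00000036446) and Mgp (ENSMUSG00000030218). The rule that picks them is a list of identifiers and uses no measured value, but the list was drawn up with earlier results of these data known. All 8 identifiers were found among the 16976 Ensembl gene identifiers of the deposited count table. The table holds RNA that came down with LARP1, an RNA-binding protein, from mouse dorsal root ganglia (DRG), the sensory ganglia whose axons run in nerves such as the sciatic nerve. All mice were wild type. The uninjured group had no nerve injury and the injured group had a sciatic nerve injury, with 3 libraries each; strain, age, sex, the time after injury and whether ganglia were pooled are not stated in the labels. The identifiers were paired with symbols for these 8 genes only, so the cell types of the ganglion were not checked against their own markers. A change in the number of fibroblasts or other cells, in RNA per cell, and in recovery with LARP1 cannot be told apart.

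Fibroblasts of the nerve coverings and of the tissue around vessels secrete most of the matrix of a peripheral ganglion. Col1a1 and Col1a2 encode the chains that fold together into type I collagen, Col3a1 encodes the type III chain that forms fibrils with it, and Col6a1 a chain of the beaded collagen VI microfibrils. Fn1 encodes fibronectin, a glycoprotein that links cells through integrins to the matrix and is laid down early in wound repair. Dcn and Lum encode decorin and lumican, small leucine-rich proteoglycans that bind collagen fibrils and set their spacing. Mgp encodes matrix Gla protein, an inhibitor of calcification. LARP1 is best known for holding mRNAs that begin with a terminal oligopyrimidine (TOP) tract, a C at the cap followed by a run of C and T, as in the mRNAs of ribosomal proteins. No total RNA and no control precipitate was analysed here, so a level below is that of an mRNA in the precipitate, not its binding by LARP1.

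Because LARP1 is known for such starts, genomic bases around the annotated start are shown for members listed in the RefSeq promoter table (GRCm38.p6). This was the case for 3 of the 8 members. Each line gives 10 bases before and 20 bases from the annotated start, 5′ to 3′; capitals mark a C followed by at least 4 pyrimidines (C or T, on the strand of the gene), beginning within 5 bases of the start. Rps6, a ribosomal protein gene with a known TOP start, is shown for comparison. The windows lie at chr6:4505608-4505637 (plus strand, Col1a2), chr1:45311528-45311557 (plus strand, Col3a1), chr10:76726025-76726054 (minus strand, Col6a1) and chr4:86857348-86857377 (minus strand, Rps6).
Col1a2: tagccCTCCCattggtggagacgtttttgg
Col3a1: actgctgaggggatgggttctgctctcata
Col6a1: cctccctccaCCCTCCCTggctctctcctc
Rps6: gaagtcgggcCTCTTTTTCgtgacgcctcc
Of these members, only Col6a1 had the tract at the annotated start base, with 8 pyrimidines in a row. In Col1a2 a run of 7 pyrimidines, of which the last 5 lie within the window searched, ended just before the annotated start, which is itself an A. Col3a1 had no such run within 5 bases. Of the 32851 promoters in the table, 2.51% had the run at the start base and 18.3% had it within 5 bases. Of 9 genes with a known TOP start that the table lists, 2 had it at the annotated start base and 4 within 5 bases. The annotated start therefore need not be the first base of the mRNA, and the windows do not show which members have a TOP start.

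The precipitates were shallow for genes of this abundance. The uninjured libraries held 116186 to 116608 counts and the injured ones 211337 to 211879, and the 8 genes together received 112 uninjured and 318 injured counts. Across genes with 15 or more counts, libraries of the same group scattered little more than counting noise, by 1.16 times its variance without injury and 1.12 times with it. Each group was therefore counted as 1 sample; the labels name no separate animals. Levels are given as CPM, a gene's counts scaled to a library or group total of 1000000, and a group's level has a 95% exact Poisson interval. The 95% interval of a ratio of CPM is exact (Clopper-Pearson) and treats a gene's counts as drawn from both groups. The intervals cover counting error only, there is no replicate check, and injury and any difference in how the groups were prepared cannot be told apart.

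The ratio of injured to uninjured levels differed widely among the 8 genes. Fibronectin mRNA was 9.53-fold higher in the injured precipitate, decorin and Col1a2 were 1.92-fold and 1.77-fold higher, and Lum, Col1a1 and Mgp lay between 0.971 and 1.14 times their uninjured levels. Col3a1 was at 0.236 times its uninjured level on few counts, and Col6a1 was too low to compare. Together the 8 genes amounted to 284, 317 and 361 CPM in the uninjured and 529, 478 and 497 CPM in the injured libraries. The summed injured level was 1.56 times the uninjured one, and 1.34 times with Fn1 left out. Of the single genes, 3 had every injured library above every uninjured one, an order seen in 26.6% of all genes with a mean level of 10 CPM or more.

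**Figure D1:**
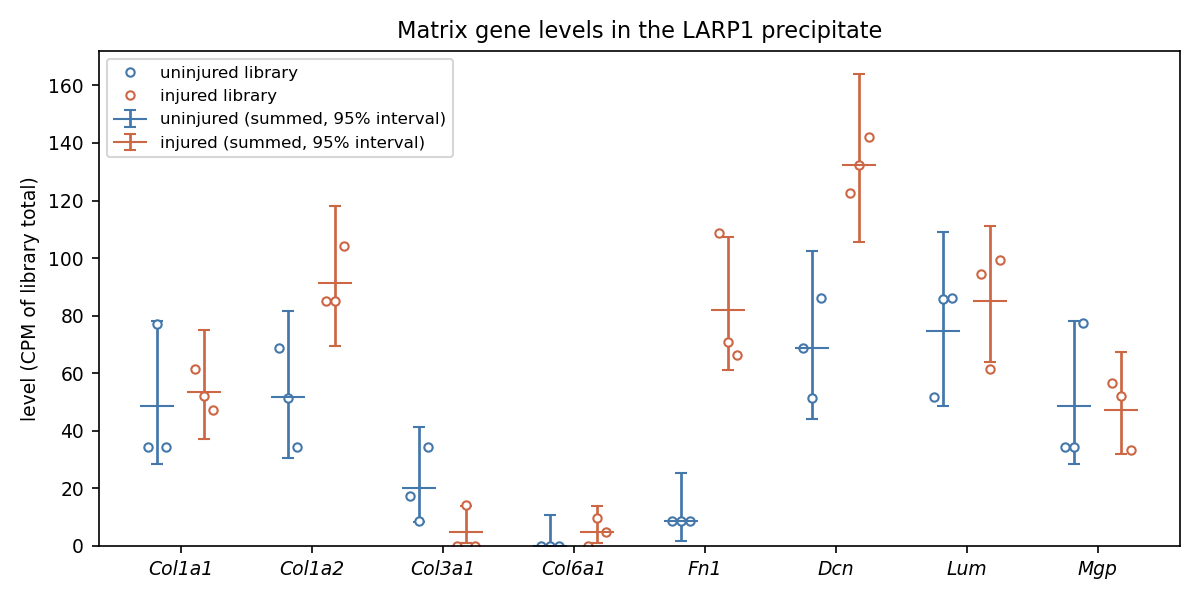
Level of each gene in CPM of the library total (vertical axis) by gene (horizontal axis), uninjured in blue and injured in orange. Open circles are libraries, dashes the level of the group's summed counts, and bars its 95% exact Poisson interval, for counting error only. The 3 injured libraries lie above the 3 uninjured ones for Col1a2, Fn1 and Dcn; Col6a1 has 0 counts in all 3 uninjured libraries.

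Fn1 had the highest ratio of the 8 genes. Each uninjured library held 1 count of its mRNA, and the injured libraries held 23, 15 and 14. Every injured library was at least 66.2 CPM and every uninjured library at most 8.61 CPM. Summed by group, the level was 8.60 CPM without injury (95% interval 1.77 to 25.1) and 81.9 CPM with injury (61.2 to 107). The ratio of 9.53 had an interval of 3.09 to 47.7, wide because only 3 uninjured counts stand behind it. Of the 8678 genes whose level averaged 10 CPM or more over both groups, 187 (2.15%) had a ratio at least as high. Genes without any uninjured count were set to 3 counts, the number that Fn1 had. They were therefore included only if their injured level was at least that of Fn1, so this share may be too low. The log2 ratio of Fn1 was 3.25 with all libraries and 3.00 without the injured library of 23 counts. As the libraries of a group count as 1 sample, this is not a replicate check.

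Dcn, the gene of decorin, was the next highest in ratio. Uninjured libraries held 8, 6 and 10 of its counts, injured ones 26, 28 and 30. The levels ran from 51.5 to 86.1 CPM without injury and from 123 to 142 CPM with injury, with a gap between the groups. The summed level went from 68.8 CPM (44.1 to 102) to 132 CPM (106 to 164), so that the ratio was 1.92 (1.21 to 3.17). Lum, which encodes the related proteoglycan lumican, differed by less than its counting error. Its counts were 6, 10 and 10 in uninjured and 20, 13 and 21 in injured libraries, and the libraries of the groups overlapped. The summed level was 74.5 CPM (48.7 to 109) without injury and 85.1 CPM (63.9 to 111) in the injured precipitate, 1.14 times as high (0.703 to 1.90). The shift between these related genes was itself within counting error: Dcn held 48.0% of the Dcn and Lum counts without injury (95% exact interval 33.7% to 62.6%) and 60.9% with injury (52.2% to 69.1%), an odds ratio of 1.68 (0.833 to 3.41).

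The chains of type I collagen gave different ratios, but their difference was not resolved. Uninjured libraries held 8, 6 and 4 counts of Col1a2, injured ones 18, 18 and 22. All injured libraries, at 85.0 to 104 CPM, lay above the uninjured ones, at 34.4 to 68.8 CPM. The summed level went from 51.6 CPM (30.6 to 81.5) to 91.4 CPM (69.4 to 118), and the ratio of 1.77 had an interval of 1.03 to 3.20. On the scale of trimmed mean of M values (TMM), which corrects library totals for a few strongly changed genes, the ratio was 1.68 (0.978 to 3.04), so its interval then included no change. For Col1a1 the uninjured counts were 4, 9 and 4 and the injured counts 13, 11 and 10. Its second uninjured library, at 77.2 CPM, lay above all 3 injured libraries, which were at 47.3 to 61.4 CPM, and the other uninjured libraries lay below them. Its summed level was 48.7 CPM (28.4 to 78.0) in the uninjured and 53.6 CPM (37.1 to 74.9) in the injured precipitate, which is 1.10 times as high (0.598 to 2.10). As a share of the type I collagen counts, Col1a1 made up 48.6% (31.4% to 66.0%) without and 37.0% (27.1% to 47.7%) with injury, with an odds ratio of 0.623 (0.263 to 1.47).

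Col3a1 was the only member with a ratio under 0.5. Uninjured libraries held 2, 1 and 4 of its counts, injured ones 0, 3 and 0. All injured counts fell in the second library, which at 14.2 CPM lay within the uninjured range of 8.58 to 34.4 CPM. The summed level was 20.1 CPM (8.06 to 41.3) in the uninjured precipitate, 4.24 times (0.969 to 25.4) the injured level of 4.73 CPM (0.975 to 13.8). The interval included no change by column totals and excluded it narrowly on the TMM scale, where the ratio of injured to uninjured was 0.224 (0.0374 to 0.981). Without the second injured library no injured count was left, and the uninjured level was at least 2.83-fold higher than a floor of 3 counts over the remaining injured libraries (7.09 CPM), taken as measured. Of the 8678 genes, 431 (4.97%) had a ratio of injured to uninjured as low or lower than that of Col3a1. Genes with 0 injured counts were set to 3 counts, so they were included only if their uninjured level was at least that of Col3a1.

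For Mgp and Col6a1 no difference was resolved. The Mgp counts were 4, 4 and 9 in uninjured and 12, 11 and 7 in injured libraries. The libraries numbered 3 gave the extremes, with the highest level of all 6 without injury (77.5 CPM) and the lowest with it (33.1 CPM). The summed level of 48.7 CPM (28.4 to 78.0) compared with 47.3 CPM (31.9 to 67.5) after injury, 0.971 times as high (0.518 to 1.88). Col6a1 had no count among the 349027 counts of the uninjured group, which allows a level of up to 8.60 CPM (3 counts). In the injured libraries it had 0, 2 and 1 counts, or 4.73 CPM (0.975 to 13.8), which lies below that limit, so a difference was not detectable at this depth and no ratio is given. Among the 3 members whose start is listed, only Col6a1 carries the pyrimidine run at the annotated start, and a link to its level was not tested.

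**Figure D2:**
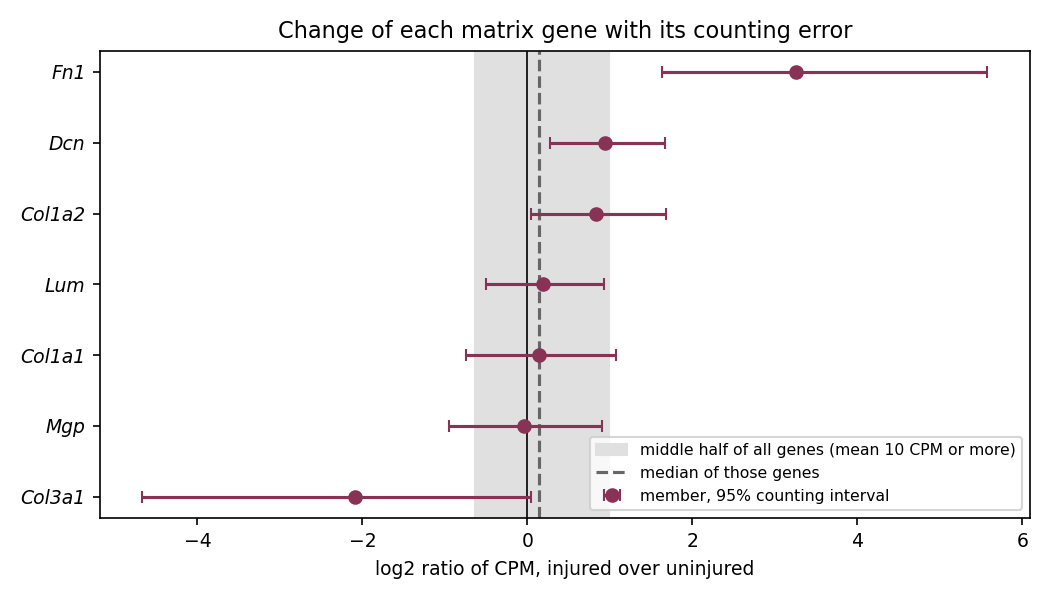
Log2 ratio of CPM, injured over uninjured (horizontal axis), for the 7 members with a ratio (vertical axis), with 95% exact counting intervals. The grey band spans the quartiles of the 8678 genes averaging 10 CPM or more (-0.64 to 0.99) and the dashed line their median (0.14); Fn1 at 3.25 and Col3a1 at -2.08 lie outside the band, the other 5 inside it.

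By the median of its log2 ratios, the list lay near the centre of all genes. With 1 library left out that median ran from -0.01 to 0.64. The summed injured level of the 8 genes was 1.56 times the uninjured one, and no interval was computed for that sum. Averaging 10 CPM or more were 7 of the 8 members, all but Col6a1; their median log2 ratio was 0.19, and that of the 8678 genes was 0.14. A ratio above 2 was seen for 1 of the 7 (Fn1), against 24.8% of the 8678 genes, and a ratio under 0.5 for 1 of the 7 (Col3a1), against 16.8%. The counting interval lay above 1 for 3 members (Fn1, Dcn and Col1a2), against 23.2% of the genes, and below 1 for 0 members, against 16.7%. On the TMM scale it lay above 1 for 2 members (Fn1 and Dcn), against 21.3% of the genes, and below 1 for 1 (Col3a1), against 19.1%. The same 3 members had every injured library above every uninjured one, against 26.6% of the genes, and 0 had the opposite order, against 17.7%.

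The test across all genes was edgeR's quasi-likelihood test with TMM factors at a Benjamini-Hochberg threshold of 0.05; it compares the reads of these libraries, not the conditions. Of the 3158 genes that passed its filter on low counts, 24.9% were called higher and 22.1% lower in the injured libraries. Only Col1a2, Fn1, Dcn and Lum passed, in each case with all 3 injured libraries and at most 2 uninjured ones above the minimum, so that a call among them is read as a description; for Fn1 it was 0 uninjured libraries. Fn1 (log2 fold change 3.07) and Dcn (0.86) were called higher. Col1a2 (0.74) and Lum (0.12) were not called. Without a filter all 8 members were tested among 13236 genes, of which 7.16% were called higher and 4.40% lower, and again Fn1 and Dcn were called and the other 6 were not. The call of Dcn was lost with DESeq2's Wald test (log2 fold change 0.94), without the first uninjured library (0.86) and without the second (0.69). Col1a2 was called only with library totals in place of TMM factors (0.85), among the 10 alternatives that tested it.

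The make-up of the matrix gene counts does not depend on how the libraries are scaled. Of the 8 genes' counts, Fn1 made up 3.03%, 2.70% and 2.38% in uninjured and 20.5%, 14.9% and 13.3% in injured libraries. Summed, its share went from 2.68% (95% exact interval 0.556% to 7.63%) to 16.4% (12.5% to 20.9%), an odds ratio of 7.08 (2.22 to 36.2). The fibrillar collagens Col1a1, Col1a2 and Col3a1 held 37.5% (28.5% to 47.1%) and 29.9% (24.9% to 35.2%) of the counts. Within them, Col3a1 had 16.7% (6.97% to 31.4%) without and 3.16% (0.656% to 8.95%) with injury, an odds ratio of 0.166 (0.0262 to 0.775) that rests on 7 and 3 counts. Dcn and Lum together held nearly the same share, 44.6% (35.2% to 54.3%) and 43.4% (37.9% to 49.0%). Mgp held 15.2% (9.10% to 23.2%) and 9.43% (6.46% to 13.2%), with an odds ratio of 0.583 (0.296 to 1.18). These shares were chosen after the levels had been seen, and a share falls where another member's rises.

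**Figure D3:**
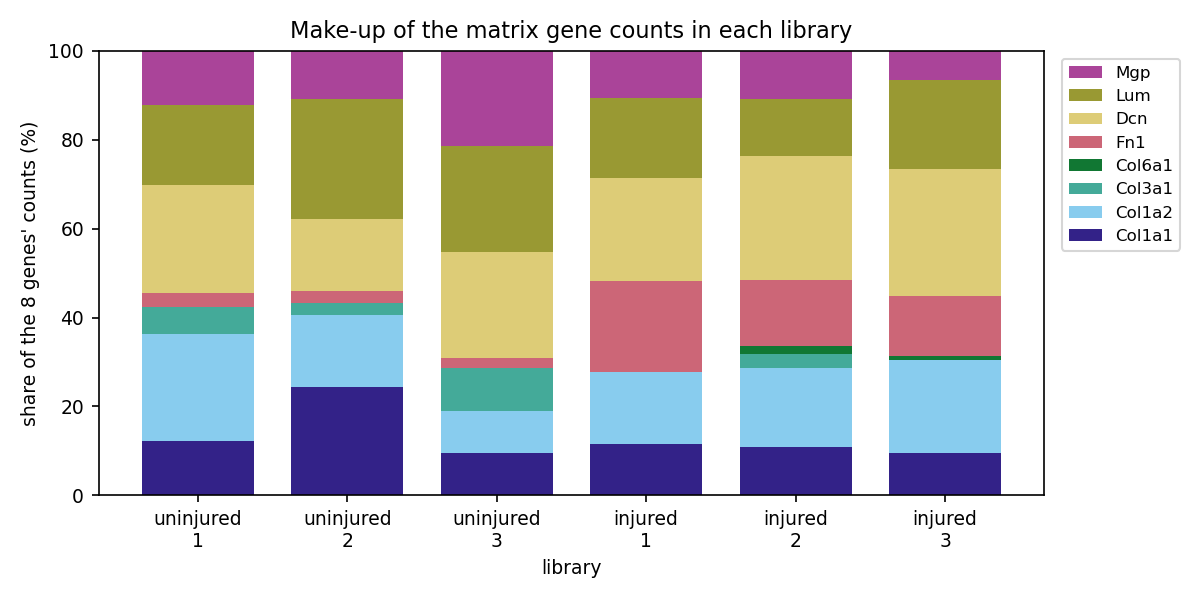
Share in percent of the 8 genes' counts (vertical axis) held by each gene in each library (horizontal axis). The Fn1 segment spans 2.38% to 3.03% without injury and 13.3% to 20.5% with it; the segments of Dcn and Lum together hold 40.6% to 48.6% in every library.

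Single libraries moved the genes with few counts. The log2 ratio of Col1a1, 0.14 with all libraries, became 0.64 without the second uninjured library, and that of Mgp went from -0.04 to 0.46 without the third uninjured library. That of Col1a2 ranged from 0.60 to 1.09. That of Col3a1 ranged from -2.45 to -1.45 over the 5 omissions that left it an injured count; without the second injured library it had none, and its ratio has only the bound given above. Fn1 kept a log2 ratio of 3.00 to 3.38 and Dcn one of 0.77 to 1.14 whichever library was left out. Within a group, the members' libraries were compared by 15 exact multinomial tests with the library totals as weights; the lowest unadjusted p was 0.0369, for the 0, 3 and 0 injured counts of Col3a1, with a Benjamini-Hochberg adjusted exact p of 0.554.

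**Figure D4:**
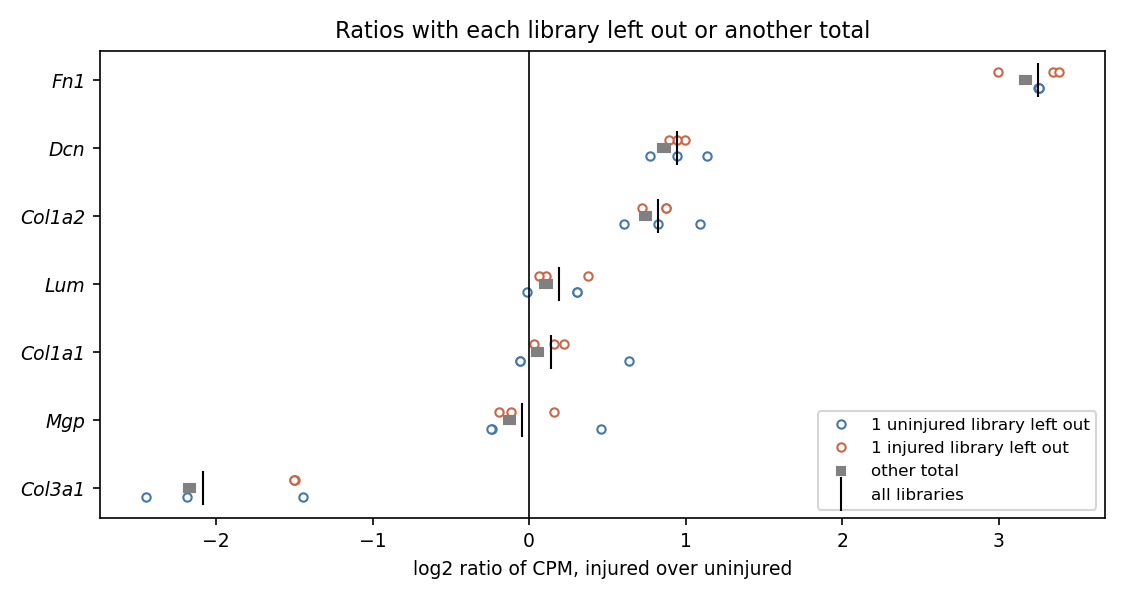
Log2 ratio of CPM, injured over uninjured (horizontal axis), for 7 members (vertical axis), with all libraries (black tick), with 1 library left out (open circles, by group) and with other totals (grey squares: TMM-scaled, or without the 10 most abundant genes). The lowest values of Fn1 and Dcn are 3.00 and 0.77, Col1a1, Lum and Mgp have values on each side of 0, and the Col3a1 value without the second injured library uses a floor of 3 counts and is an upper limit.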

How the data were processed

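The authors deposited estimated counts for Ensembl genes without scaling, made with minimap2 and Salmon on the mouse build GRCm39 (mm39), per the submitters' processing notes. Their versions, annotation release and filters: not given in the sources used here. RNA came from an anti-LARP1 precipitate of DRG lysate and was sequenced as amplified, barcoded nanopore cDNA, per the labels' protocols; molecular identifiers played no part here. All values were whole numbers, 0 rows named no gene and 0 columns were unused.

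Counts were divided by column totals (CPM) and tested with edgeR 4.0.16 (R 4.3.3), with TMM, filterByExpr and Benjamini-Hochberg adjustment over all genes tested. The procedure was tested on simulated data, in which no gene with a level as low as that of Col3a1 or Col6a1 was changed. Recovery of a change at such levels was therefore not tested. TMM factors were 0.960 to 0.965 (uninjured) and 1.04 (injured), which puts CPM ratios 0.07 (log2) above the TMM scale. Alternatives were other size factors, other filters, limma-voom (limma 3.58.1), DESeq2 1.42.0, the replicate block and leaving out single libraries.

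The members and lists were chosen with earlier results of these data known. The rule for naming genes was to give all 8 members; the 18 further lists of pathways and cell type markers were fixed by symbol and not analysed here, since the gene table paired 0 identifiers with a symbol. No gene is named for a likeness to the members, since there is 1 sample per group. The minimum of 10 CPM and the calls by interval or overlap were chosen after seeing the data.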

Additional observations from a re-analysis of the deposited data

How the results depend on the processing

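Of all genes tested by edgeR, 24.9% were called higher and 22.1% lower in the injured libraries. Of the 4 members tested, Fn1 and Dcn were the 2 called higher. With DESeq2's Wald test 1 was called (Fn1), with library totals alone 3, and with 1 library left out 1 to 2; 0 were called lower by edgeR or under any of the 13 alternatives, DESeq2 and limma-voom included, and 0 were lower at an unadjusted p under 0.05. For the lower direction this says little, since the filter kept Col3a1, the member with the lowest ratio, out of edgeR's test and out of 11 of the 13 alternatives, limma-voom included, and Mgp out of edgeR's test and 8 of them; where they were tested, in 2 and 5 alternatives, they were not called. Without an uninjured library the call lost was that of Dcn (first or second library left out). Without any 1 injured library it was that of Fn1, which then did not pass the filter and was not tested. Over all genes, 638 to 836 were called higher and 582 to 756 lower with 1 library left out, against 786 and 699 with all. DESeq2's Wald test called 801 genes higher and 599 lower, and library totals alone gave 927 and 610. Shares of the genes tested were not computed for these alternatives. The replicate block gave 750 and 677 genes and the same 2 members. Deviations from the group mean correlated at 0.04, -0.01 and -0.05 between same-numbered libraries. Since libraries of a group scattered little more than counting noise, these values cannot show whether same-numbered libraries were paired. The median log2 ratio of the members, 0.19, was 0.12 on the TMM scale, 0.10 without the 10 most abundant genes, and -0.01 to 0.64 with 1 library left out. No called member changed direction. Depth limits every member: 3 counts are 8.60 CPM in the uninjured and 4.73 CPM in the injured group.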
